A study of Mus musculus with 2 samples.

Results

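The ATP-binding cassette (ABC) genes whose products pump substrates out of cells, here the 8 genes Abcb1a, Abcb1b, Abcb4, Abcc1, Abcc4, Abcc5, Abcg1 and Abcg2, were followed in long-read RNA sequencing of the mouse adrenal gland. The members were all rows of the deposited tables that name 1 of these 8 genes as an annotated gene, out of 16745 annotated genes with at least 1 read. They are 8 of those 16745 genes, and all 8 were read in replicate 1 and 7 of them in replicate 2. The tissue came from wild-type C57BL/6J mice in 1 group of 2 libraries, with no treatment, time or genotype to compare. The labels number the libraries as biological replicates with a biosample each and 1 shared donor entry, so their spread may in part be technical. Age is given as unknown, and a description calls the animals male while the sex entry itself reads as uncollected. A long read follows 1 cDNA molecule and can show which exons that molecule joined, and how many reads amplification may give per RNA is not given in the sources used here.

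ABC transporters bind and hydrolyse ATP on the inner face of the membrane and use it to move a substrate across. Abcb1a and Abcb1b encode the mouse P-glycoproteins, which expel lipophilic drugs and several steroids, and Abcb1b is the form known for its abundance in the mouse adrenal cortex. Abcg2, the breast cancer resistance protein, exports xenobiotics, urate and sulfated steroids. Abcc1, Abcc4 and Abcc5 are multidrug resistance-associated proteins that carry conjugates or cyclic nucleotides, Abcg1 passes cholesterol to high-density lipoprotein, and Abcb4 moves phosphatidylcholine into bile.

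Replicate 1 held 848782 reads and replicate 2 held 545229, so 1 read was worth 1.18 and 1.83 CPM (reads of a gene per 1000000 reads of the library). The libraries differed in what they read: the median annotated length of a known transcript per read was 1648 bases in replicate 1 and 2740 bases in replicate 2. Markers of the labelled tissue were read in both, 8 of 8 for the cortex (51489 and 80157 CPM summed) and 7 of 7 for chromaffin cells (13209 and 25998 CPM). By total reads, 5 cortex markers were higher in replicate 2 and 3 lower (4 and 4 with TMM factors). Of the chromaffin markers, 4 were higher and 3 lower (3 and 3 with TMM factors). The 10 endothelial markers summed to 447 and 1425 CPM and the 9 macrophage markers to 1145 and 319 CPM. Among the latter, Cd163, named after its values were seen, had 1 read in replicate 1 and 0 in replicate 2. The 5 erythroid markers summed to 1925 and 160 CPM and the 6 stromal markers to 459 and 299 CPM. Most of these sums held markers called in both directions. Of the tested ones, 7 of 9 endothelial markers were higher in replicate 2 and 1 lower, and 3 of 8 macrophage markers higher and 5 lower. Of the erythroid markers 0 of 5 were higher and 4 lower, and of the stromal ones 3 of 6 higher and 1, Dcn, lower. By the same test of total reads, 36.6% of all genes were higher in replicate 2 and 27.9% lower. Adjusted for transcript length (a running median of the ratio), 0 macrophage and 0 erythroid markers were called, and 4 endothelial markers were higher and 1 lower. So adjusted, 20.0% of all genes were higher and 21.4% lower. The part of these cell types in the members' values was not tested, and in bulk tissue fewer cells of a type and less RNA per cell cannot be told apart.

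Abcb1b (ENSMUSG00000028970.9, chr5:8798147-8866315 on mm10, plus strand) was by far the most read transporter of the 8. It had 514 reads in replicate 1 and 423 in replicate 2, which is 606 CPM (exact Poisson 95% interval 554 to 660) and 776 CPM (704 to 853), a mean of 691 ± 120 CPM (SD, n = 2). Its mean level ranked 140 among the 16745 genes, and 13 among the 2538 genes whose annotated length was within 20% of its own 4306 bases. Of all reads of the 8 members, Abcb1b held 85.2% (514 of 603, exact Clopper-Pearson 95% interval 82.2% to 88.0%) in replicate 1 and 79.7% (423 of 531, 76.0% to 83.0%) in replicate 2. St3gal5, Ctsf and G3bp1 were the genes whose CPM in the 2 libraries lay closest to those of Abcb1b, by distance in log2(CPM + 1) over 2 libraries.

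The other members were read at levels between 1.18 and 50.1 CPM on average. Abcg2 (ENSMUSG00000029802.13, chr6:58584523-58695676) had 29 and 36 reads, or 34.2 and 66.0 CPM, and Abcc5 (ENSMUSG00000022822.16, chr16:20331303-20426394) had 34 and 18 reads, or 40.1 and 33.0 CPM. Their ranges overlapped, so their order is not settled by these libraries. Abcb1a (ENSMUSG00000040584.8, chr5:8660077-8748575) followed with 8 and 17 reads, or 9.43 and 31.2 CPM. Abcc1 (ENSMUSG00000023088.17, chr16:14361558-14475737) had 8 and 13 reads, or 9.43 and 23.8 CPM. Abcc4 (ENSMUSG00000032849.14, chr14:118482692-118706219) had 5 and 12 reads, or 5.89 and 22.0 CPM. The ranges of Abcb1a and Abcc1 overlapped, as did those of Abcc1 and Abcc4, and those of Abcc4 and Abcg1. Abcg1 (ENSMUSG00000024030.7, chr17:31057675-31117988) had 3 and 12 reads, or 3.53 and 22.0 CPM. Abcb4 (ENSMUSG00000042476.12, chr5:8893717-8959231) had 2 reads in replicate 1 and 0 in replicate 2, where 0 reads allow up to 5.50 CPM by the limit of 3 counts. Neighbours whose library values did not overlap were Abcb1b over Abcg2, Abcc5 over Abcb1a (33.0 against 31.2 CPM) and Abcg1 over Abcb4. Counting error leaves the order of Abcc5 and Abcb1a open, with intervals of 19.6 to 52.2 and 18.2 to 49.9 CPM in replicate 2. For Abcg1 and Abcb4 the intervals also overlapped in replicate 1, at 0.729 to 10.3 and 0.285 to 8.51 CPM. Divided by the annotated length of the most read known transcript, the level of Abcb1b was 141 and 180 CPM per kilobase and that of Abcg2 15.7 and 30.3, and the remaining 5 genes with a known transcript lay between 0.606 and 8.85. Since a long read follows 1 cDNA molecule, these quotients are a description and not a corrected level. They also rest on the transcript chosen: for Abcg2 it was Abcg2-202 of 2178 bases, with 8 reads in replicate 2. Abcg2-201 of 5717 bases had 18 reads there.

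**Figure D1:**
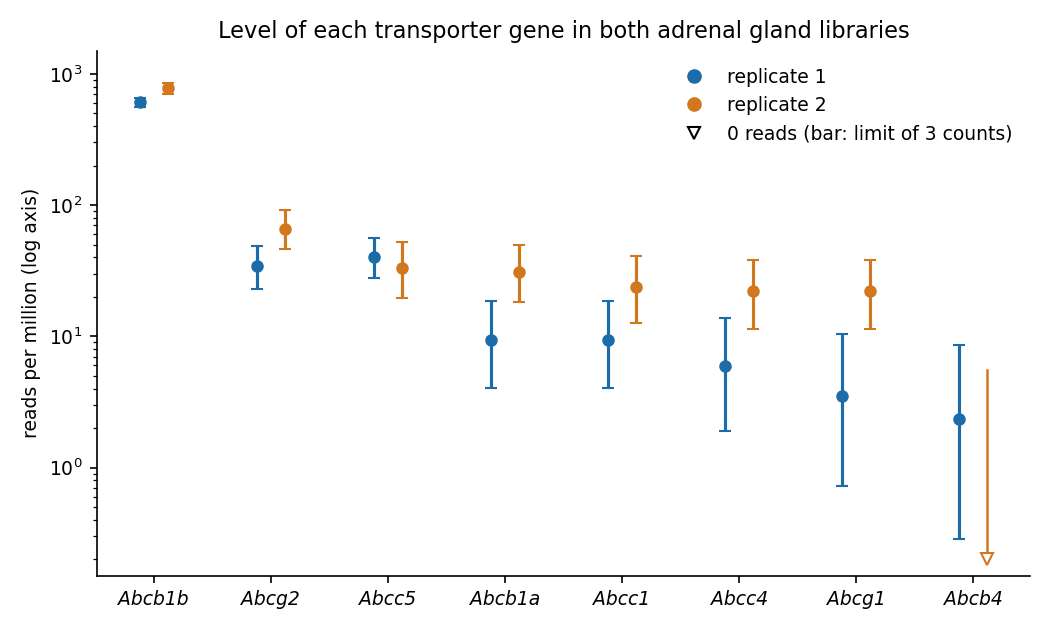
Level of each gene in CPM on a log axis, with exact Poisson 95% intervals, for replicate 1 (blue) and replicate 2 (orange). Abcb1b sits at 606 and 776 CPM and the other members at or below 66.0 CPM; the open triangle marks Abcb4 in replicate 2 with 0 reads, and its bar ends at the limit of 3 counts, 5.50 CPM.

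The promoter of Abcb1b is shown because most of its reads ran from its first exon. Models beginning at 8798147, the start given by RefSeq, numbered 29 with 325 reads in replicate 1 and 39 with 82 reads in replicate 2. Reads of Abcb1b-201, the main coding transcript of 28 exons, are placed at its annotated start at 8798186. The 250 bases before that start (RefSeq, GRCm38.p6, chr5:8797897-8798146, plus strand) are printed with motif matches in capitals:
Abcb1b promoter: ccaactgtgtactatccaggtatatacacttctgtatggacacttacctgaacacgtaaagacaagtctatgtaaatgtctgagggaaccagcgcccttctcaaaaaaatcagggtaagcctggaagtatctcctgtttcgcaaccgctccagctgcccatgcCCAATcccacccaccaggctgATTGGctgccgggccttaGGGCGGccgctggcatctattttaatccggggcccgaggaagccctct
Each window was searched on both strands for the core site of steroidogenic factor 1 (AAGGTCA), which 4.08% of 32817 promoter windows of the same 250 bases held. The GC box (GGGCGG) was held by 32.7% of windows and the CCAAT box, spelled as its name, by 33.8%. The TATA box (TATAAA) was in 12.4% of windows, and the cyclic AMP response element (TGACGTCA) in 1.55%. The Abcb1b window held a CCAAT box on the plus strand 87 to 83 bases before the start and another on the minus strand at 66 to 62. A GC box stood at 48 to 43, with no overlap between the matches. A match is a description of the letters only.

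Abcb1b RNA was read in very different states of completeness in the 2 libraries. Reads starting in exon 1 made up 76.7% of its reads in replicate 1 (394 of 514) and 78.5% in replicate 2 (332 of 423), but reads ending in exon 28 made up 32.3% (166) and 83.5% (353). Reads that ran from exon 1 to exon 28 were 74 of 514 in replicate 1, or 14.4% (11.5% to 17.7%), and 273 of 423 in replicate 2, or 64.5% (59.8% to 69.1%). The share starting in exon 1 was thus alike in the libraries and the share ending in exon 28 was not. Of the reads starting in exon 1, 53.6% in replicate 1 and 4.52% in replicate 2 were short models that stop in intron 2. The likeness of the starts includes these models and need not hold for the other reads.

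The commonest Abcb1b structure of replicate 1 was a short one that stopped in intron 2. A model of 2 exons, spliced across intron 1 and ending at 8799832, 1026 bases into the 6626 bases of intron 2, had 132 reads, and an unspliced model with the same start and end had 79. Together these were 211 of 514 reads, or 41.1% (36.8% to 45.4%), a level of 249 CPM. In replicate 2 the same pair of structures, ending 7 bases earlier at 8799825, had 3 and 12 reads, or 3.55% (2.00% to 5.78%) and 27.5 CPM. Only 65 of the 3828 coding bases of Abcb1b-201 lie before intron 2, since its start codon is in exon 2. Without these models Abcb1b kept 303 reads (357 CPM) and 408 reads (748 CPM). The pipeline lets reads share the ends of a model, so an end here need not be where each read stopped.

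**Figure D2:**
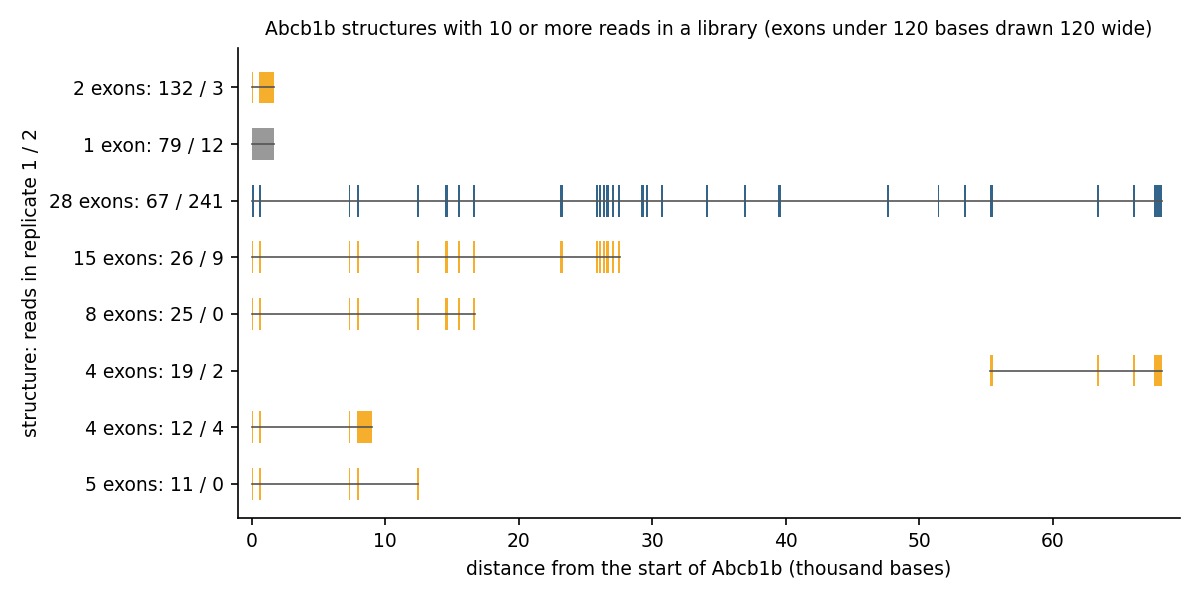
Abcb1b structures with at least 10 reads in a library, drawn by distance from the start of the gene, with exons as boxes (blue: Abcb1b-201, orange: incomplete, grey: unspliced) and the reads in replicate 1 and 2 at the left. The 2 structures that stop in intron 2 have 132 and 79 reads in replicate 1 against 3 and 12 in replicate 2, and the complete 28-exon structure has 67 against 241.

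Other incomplete structures were found in both libraries, in replicate 1 alone or in replicate 2 alone. Models from exon 1 that ended in exon 15 had 26 and 9 reads, and those that ended in exon 24 had 5 reads in each library. Those that ended in exon 8 had 25 and 0 reads and those in exon 5 had 11 and 0. Models of 4 exons ending in intron 4 had 12 and 4 reads, with ends 852 bases apart in the libraries. Those that ended in exon 16 had 0 and 3. At the other end, models from exon 25 to exon 28 had 19 and 2 reads, and those that began in exon 2 had 0 and 8. Incomplete models that kept the 5′ end of an annotated transcript held 231 reads in replicate 1 and 38 in replicate 2. Those that kept the 3′ end of one held 90 and 79, so in read counts the larger difference lay in the former. Known reads of Abcb1b were 71 and 242, and set against these the models that kept a 3′ end differed between the libraries too. Counted per intron, 315 and 319 reads crossed intron 1, but 179 and 323 crossed intron 2. The lowest count in replicate 1 was 115 reads across intron 15 and the lowest in replicate 2 was 317 across intron 4.

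**Figure D3:**
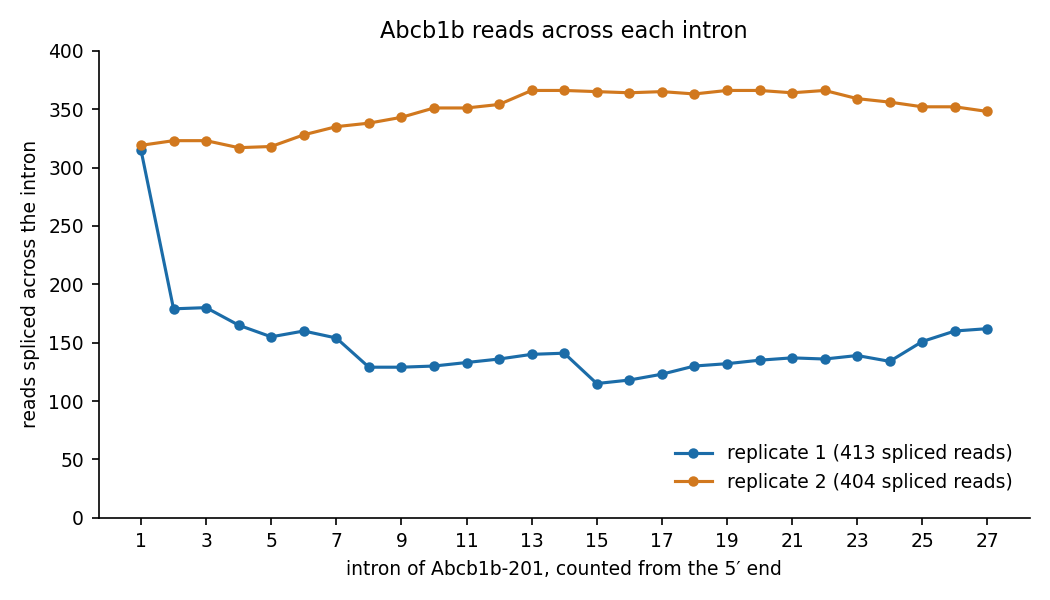
Number of spliced Abcb1b reads that cross each of the 27 introns of Abcb1b-201, from the 5′ end, in replicate 1 (blue, 413 spliced reads) and replicate 2 (orange, 404). The libraries start together at 315 and 319 reads; replicate 1 drops to 179 at intron 2 and to 115 at intron 15, while replicate 2 stays between 317 and 366.

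The share of incomplete reads among known and incomplete reads of Abcb1b was 82.2% in replicate 1 (327 of 398) and 33.0% in replicate 2 (119 of 361). A two-sided Fisher's exact test over 2433 genes gave a Benjamini-Hochberg adjusted p of 1.96e-42 for this difference. By this test 28.8% of genes were called, 25.2% with the lower share in replicate 2 as for Abcb1b. The median share was 10% and 5.13% over all tested genes, and 18.2% and 10.7% over genes of similar length, so Abcb1b lay above the median in both libraries. Without the 2-exon model the shares were 73.3% (195 of 266) and 32.4% (116 of 358), with an adjusted p of 1.56e-22. Abcg2, the other member with enough reads for the test, had 8.70% and 13.3% incomplete reads (adjusted p = 0.923).

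Abcb1b-201 was the main form among reads outside the incomplete and genomic classes. It had 67 and 241 reads, which is 73.6% of 91 and 84.6% of 285 reads of known models and of models with unannotated junctions or combinations, whether or not these span the gene (adjusted p = 0.165, two-sided Fisher's exact test over 2186 genes, of which 9.84% were called). Of 112 spliced Abcb1b models, 25 occurred in both libraries, and these held 77.5% and 79.2% of its spliced reads. Introns absent from the annotation numbered 43, of which 16 were seen in replicate 1, 32 in replicate 2 and 5 in both, and 13 of the 43 lay within 5 bases of annotated sites. The most frequent of the 5 shared ones, chr5:8825305-8825550 with 3 and 4 reads, uses a donor 21 bases inside intron 14, a multiple of 3. Another, 8798807-8806007 with 2 and 1 reads, joins exon 2 to exon 4 and leaves out the 49 bases of exon 3. The 27401 bases between Abcb1b and Abcb4 and the 49571 between Abcb1a and Abcb1b were crossed by no member model, so no read joined neighbours of this cluster.

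Abcb1a, the other P-glycoprotein gene, had 1 and 3 reads of its complete coding transcript Abcb1a-201. Spliced reads that began at its annotated first exon were 2 and 10, and reads that ended in its last exon 7 and 8. In each library 1 read began far upstream of the annotated gene and joined the same exons. The read in replicate 1 started at chr5:8567064 and that in replicate 2 at 8567100, which is 93013 and 92977 bases before the annotated start at 8660077. Both used a first exon ending at 8567229, a second exon of 45 bases (8605296-8605340) and then the annotated first exon joined 4 bases in, at 8660081, and the introns between them are not in GENCODE M21. The read in replicate 2 went on through 29 exons to 8746655, and the other had 4 exons. RefSeq also places an Abcb1a start in this stretch, at 8567091, and the 250 bases before it (chr5:8566841-8567090, plus strand) are shown for that reason:
Abcb1a promoter: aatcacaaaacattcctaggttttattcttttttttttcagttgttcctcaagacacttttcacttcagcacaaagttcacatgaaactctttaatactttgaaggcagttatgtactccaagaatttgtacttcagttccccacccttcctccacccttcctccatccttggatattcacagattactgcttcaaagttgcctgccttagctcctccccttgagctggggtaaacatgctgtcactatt
None of the 5 motifs has a match in this window, which says only that those letters are not there. Its G and C content is 40.4%, against 52.8% for the Abcb1b window.

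The P-glycoprotein genes are close copies, and a short read can match both. Their coding sequences, 3828 bases each without the stop codon, were identical at 88.2% of aligned bases, against 76.3% for Abcb1a with Abcb4 and 74.7% for Abcb1b with Abcb4. The longest stretch without a difference between Abcb1a and Abcb1b was 338 bases across exons 13 and 14, and it is shown because a read confined to it could come from either gene. It covers chr5:8824707-8824892 and chr5:8825113-8825264 in Abcb1b, and chr5:8702387-8702572 and chr5:8702793-8702944 in Abcb1a (GENCODE M21 transcripts, GRCm38, plus strand):
exon 13: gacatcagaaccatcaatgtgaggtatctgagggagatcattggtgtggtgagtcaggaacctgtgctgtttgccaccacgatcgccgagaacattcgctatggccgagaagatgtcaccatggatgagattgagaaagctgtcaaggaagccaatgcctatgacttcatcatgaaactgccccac
exon 14: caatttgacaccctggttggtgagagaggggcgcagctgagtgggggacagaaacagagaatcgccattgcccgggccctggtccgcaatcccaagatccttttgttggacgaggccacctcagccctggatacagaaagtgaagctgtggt
The shortest Abcb1a model had 424 bases. The shortest Abcb1b model had 221 and ran from exon 4 to exon 5, outside this stretch, and no model of either gene was confined to it. With Abcb4 the longest identical stretches were 110 bases (Abcb1a) and 98 bases (Abcb1b).

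Abcb4, the phospholipid transporter of the same cluster, was close to unread. Its 2 reads in replicate 1 were a model of 4 exons from the annotated start and a model of 26 exons that leaves out 1 exon of 58 bases by an unannotated intron, chr5:8899719-8907207. None of its 5 annotated transcripts was matched in full.

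Abcg2 was read almost end to end in both libraries, but from different first exons. Reads that ran from a first exon to the last exon were 27 of 29 in replicate 1 and 29 of 36 in replicate 2. The downstream first exon (chr6:58640564-58640627), which belongs to Abcg2-202, started 23 of the 27 reads with a recognised first exon in replicate 1, or 85.2% (66.3% to 95.8%), and 9 of 29 in replicate 2, or 31.0% (15.3% to 50.8%). The first exon 43893 bases further upstream (58596671-58597108, of Abcg2-201) started 4 and 20 of them. Both transcripts hold the same coding sequence of 1971 bases. Taken by transcript, Abcg2-202 had 19 of 27 reads in replicate 1 (70.4%) and 8 of 30 in replicate 2 (26.7%), with an adjusted p of 0.0192 in the two-sided Fisher's exact test of transcript use, and Abcg2-201 had 2 and 18. With known models only the adjusted p was 0.00105. Abcg2-201 is annotated with 5717 bases and Abcg2-202 with 2178, and the libraries differ in the length of what they read; the part of length in this difference was not tested.

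The promoters of both first exons are shown because the choice between them differed (RefSeq, GRCm38.p6, plus strand, chr6:58596422-58596671 for the upstream and chr6:58640296-58640545 for the downstream one, motif matches in capitals):
upstream: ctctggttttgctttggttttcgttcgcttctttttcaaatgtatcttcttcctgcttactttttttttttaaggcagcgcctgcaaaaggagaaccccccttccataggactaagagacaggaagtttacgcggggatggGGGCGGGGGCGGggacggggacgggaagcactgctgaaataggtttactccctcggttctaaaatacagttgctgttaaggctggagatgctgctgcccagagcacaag
downstream: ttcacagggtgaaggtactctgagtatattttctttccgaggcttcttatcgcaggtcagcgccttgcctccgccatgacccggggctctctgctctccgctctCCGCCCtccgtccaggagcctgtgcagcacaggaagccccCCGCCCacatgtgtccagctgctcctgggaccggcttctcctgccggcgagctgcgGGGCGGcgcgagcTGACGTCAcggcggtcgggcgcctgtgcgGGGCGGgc
The upstream window had 50% G and C and 2 adjoining matches of GGGCGG. The downstream window had 67.6% G and C, 4 matches of GGGCGG over both strands, and TGACGTCA at 37 to 30 bases before the start, a motif found in 1.55% of all windows.

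One exon of Abcg2 was skipped in both libraries. An intron absent from the annotation, chr6:58664559-58666881, joined exon 4 to exon 6 in 3 reads of replicate 1 and 2 of replicate 2. The skipped exon 5 (chr6:58665104-58665256) holds 153 coding bases, which are 51 codons in frame:
Abcg2 exon 5: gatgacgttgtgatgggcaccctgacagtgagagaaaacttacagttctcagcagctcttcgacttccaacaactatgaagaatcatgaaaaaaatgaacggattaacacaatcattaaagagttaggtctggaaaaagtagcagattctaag
Reads with this structure came from the downstream first exon in replicate 1 and from the upstream one in replicate 2.

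Abcg1, the cholesterol exporter, was read as spliced RNA in replicate 2 alone. There it had 10 reads of the 15-exon transcript Abcg1-201, 1 of Abcg1-205 and 1 incomplete read, 12 spliced reads or 22.0 CPM. Replicate 1 had 0 spliced reads, and the 22.0 CPM of replicate 2 was 6.23-fold its limit of 3 counts (3.53 CPM). This ratio leaves out the counting error of the 12 reads, so it is not a lower bound. The exact Poisson interval of these 12 reads was 11.4 to 38.4 CPM. The 3 Abcg1 reads of replicate 1 were unspliced and lay at chr17:31114488-31115772 inside the last exon. There 16 reads of an antisense model had the same ends. How strand was assigned to unspliced reads is not given in the sources used here, so whether these 3 reads are Abcg1 RNA was not tested.

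Abcc5, the nucleotide exporter of the C family, was often read as short models that stop in an intron of its 30-exon transcript, where shorter annotated transcripts also end. Models that ended at chr16:20400760 or 20400761, inside intron 5 of the 30-exon transcript Abcc5-202, held 19 of 34 reads in replicate 1, or 55.9% (37.9% to 72.8%), and 8 of 18 in replicate 2, or 44.4% (21.5% to 69.2%). Of these, 14 and 8 began at exon 1, and 3 in replicate 1 were unspliced and lay wholly inside intron 5. Abcc5-208, a transcript of 5 exons that ends there and is annotated as retaining an intron, had 4 and 7 of these reads. Abcc5-203, a coding transcript of 7 exons that also ends there, had 1 and 0. In replicate 1 another 7 reads used an unannotated acceptor 37 bases from the nearest annotated one (intron 20401035-20402259) and 3 reads used one at 3 bases, neither of which was seen in replicate 2. Reads from the first to the last exon numbered 1 and 2.

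Abcc1 and Abcc4 reads came mainly from the 3′ part of the genes. For Abcc1, the exporter of glutathione conjugates, 5 of 8 and 13 of 13 reads ended in the last exon, and 0 and 3 of these also began at the first exon. The model of the last 9 exons had 1 and 3 reads and was the single spliced Abcc1 structure found in both libraries. For Abcc4, which exports cyclic nucleotides and prostaglandins, 3 of 5 and 9 of 12 reads ended in the last exon, and 0 and 2 spanned the gene. A model of its last 13 exons, from 118594908 on the minus strand, was again the 1 spliced structure in both libraries, with 2 and 5 reads. Complete transcripts were thus a minority of reads for these genes in both libraries, where the annotated lengths are 6792 bases for Abcc1-201 and 5715 for Abcc4-201.

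**Figure D4:**
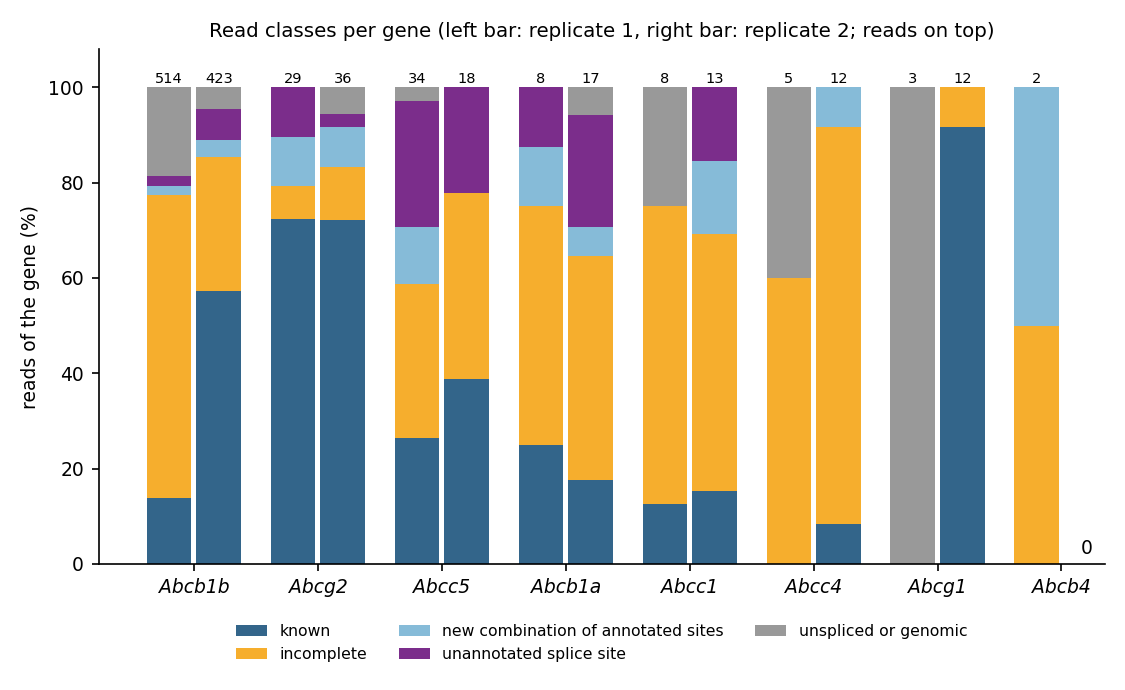
Share of each gene's reads by class in replicate 1 (left bar) and replicate 2 (right bar), with the number of reads on top. Known reads make up 13.8% and 57.2% for Abcb1b and 72.4% and 72.2% for Abcg2, and the 3 Abcg1 reads of replicate 1 are all unspliced.

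As shares of total reads, most members were higher in replicate 2. Abcb4 had too few reads to test. Of the 7 members with at least 10 reads, 5 were higher in replicate 2 and 0 lower by a two-sided Fisher's exact test, adjusted by Benjamini and Hochberg's method over 9879 genes. Of all genes tested 64.4% were called, 36.6% higher and 27.9% lower, so the background is high. The log2 ratios of replicate 2 over replicate 1, after adding 1 CPM, were 0.36 for Abcb1b (adjusted p = 4.1e-04), 0.93 for Abcg2 (0.0179), 1.63 for Abcb1a (0.00724), 1.74 for Abcc4 (0.0191) and 2.34 for Abcg1 (0.00416). Abcc1 at 1.25 (adjusted p = 0.0642) and Abcc5 at -0.27 (0.640) did not pass. The median was 1.25 over the 7 members and 0.38 over all genes tested. The test compares these libraries and takes reads as independent, so it says nothing of biological spread.

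These calls depended on how the libraries were scaled. With TMM factors, which shift the median of all genes by -0.46, Abcg1 alone was called, against 61.3% of all genes (27.1% higher, 34.2% lower). DESeq2 size factors, which shift it by -0.53, also left Abcg1 alone, against 60.2% (25.1% higher, 35.1% lower). Abcb1b then stood at -0.11 and -0.19, so its direction rests on the scaling. Genes of the length of Abcb1b had a median log2 ratio of 1.32 by total reads. After removal of the trend with transcript length, Abcb1b (-0.85, adjusted p = 6.0e-18) and Abcc5 (-1.53, adjusted p = 7.3e-04) were lower in replicate 2 and no other member was called, where 41.3% of genes were called, 20.0% higher and 21.4% lower. These values rest on the length of the most read known transcript. For Abcc5 it was the 4526 bases of Abcc5-208, where Abcc5-202 has 5811. For Abcg2 it was the 2178 bases of Abcg2-202, where Abcg2-201 has 5717. Other lengths were not tested. Without the models ending in intron 2 the length-adjusted value of Abcb1b was -0.14 (adjusted p = 0.350), and by total reads it was 1.07 (adjusted p = 1.06e-21). With known models only, Abcb1b (2.39, adjusted p = 8.0e-42), Abcg2 (0.92) and Abcg1 were called higher, 3 of 4 tested members, against 75.6% of genes called, 41.9% higher and 33.7% lower. With at least 50 reads summed, 2 of 3 tested members were called, against 83.4% of genes, and without unspliced reads 6 of 7, against 69.7%.

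**Figure D5:**
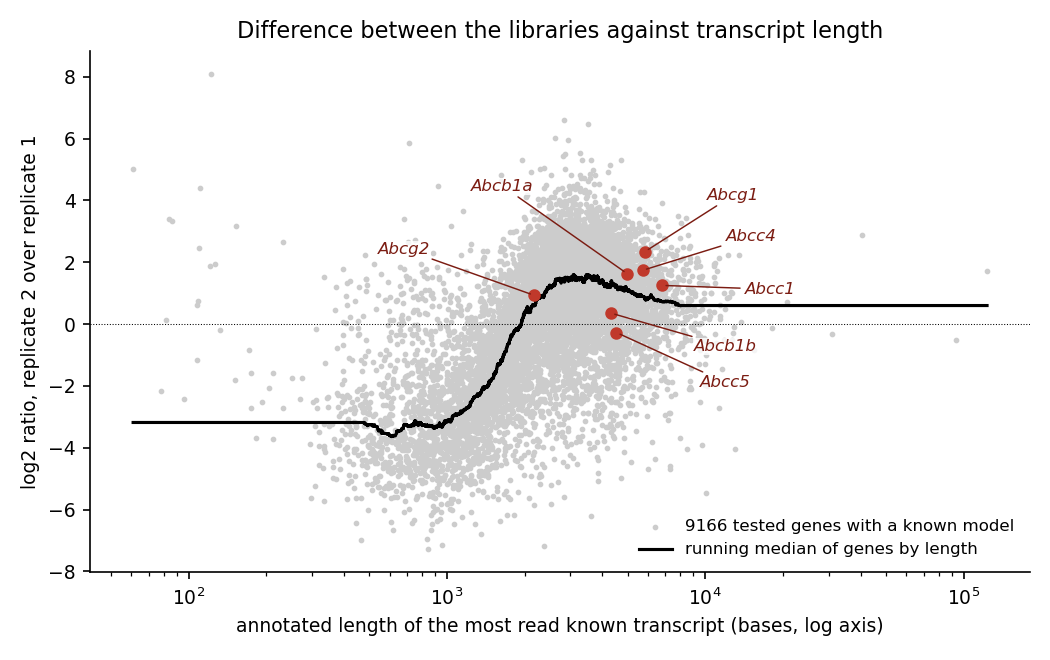
Log2 ratio of replicate 2 over replicate 1 on the scale of total reads against the annotated length of the most read known transcript (log axis), for 9166 tested genes (grey), with their running median by length (black) and the 7 tested members (red). Abcb1b at 0.36 and Abcc5 at -0.27 lie below the median for their length, and Abcg1 at 2.34 lies above it.

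The rest of the ABC superfamily gives the setting for these values. Of 45 other ABC genes listed, 31 were read and 20 were tested. Of these, 15 were higher in replicate 2 and 0 lower, against 36.6% of all genes tested higher and 27.9% lower. Their median log2 ratio was 2.11, against 0.38 over all genes tested. TMM factors gave 14 higher and 0 lower, against 27.1% and 34.2% of all genes. Adjusted for length, 8 of 16 were higher and 0 lower, against 20.0% and 21.4%. None came near Abcb1b: the highest mean level was that of Abcf3, an ABC protein without membrane-spanning parts, at 95.4 and 376 CPM. Abcb5, Abcc2, Abcc6, Abcc12, Cftr, Abcg5 and Abcg8 had 0 reads in both libraries, as did Abca4, Abca12, Abca13, Abca14, Abca15, Abca16 and Abca17.

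Regulators and partners of the transporters were read unevenly, and their counts are set against 36.6% of all genes higher and 27.9% lower by total reads. With TMM factors these shares were 27.1% and 34.2%, and adjusted for length 20.0% and 21.4%. Nr1i2 and Nr1i3, the pregnane X and constitutive androstane receptors that induce drug transporters in liver, had 0 reads in both libraries, whereas Nfe2l2, the oxidant-responsive factor, stood at 84.8 and 334 CPM and Nr5a1, steroidogenic factor 1, at 113 and 943 CPM. Of the 9 genes in this list, 6 were tested, 4 were higher in replicate 2 (3 with TMM factors, 2 adjusted for length) and 1 lower, Nr3c1, the glucocorticoid receptor, at 55.4 and 16.5 CPM. Of 14 genes of sterol sensing and cholesterol efflux, 12 were tested, 6 were higher (2 with TMM factors, 1 adjusted for length) and 2 lower; the lower ones were Apoe (2267 and 164 reads) and Npc2 (332 and 36 reads). Nr1h2, a liver X receptor, stood at 90.7 and 154 CPM. Of 8 enzymes that break down cyclic nucleotides, the substrates of Abcc4 and Abcc5, 7 were tested and 1 was higher and 1 lower (1 and 2 with TMM factors, 2 and 1 adjusted for length). The 4 tested of 9 uptake transporters were all higher (1 with TMM factors, 0 adjusted for length), among them Slc29a1, a nucleoside carrier, at 346 and 466 CPM.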

How the data were processed

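The authors deposited, for each of the 2 libraries, read counts of every transcript model as whole numbers, not normalized, with the exons of each model. Per the text deposited with each library, counting used mouse genome mm10 and GENCODE M21. The deposited annotation names TALON as the source of the unannotated models. Each model has a class: known, incomplete (part of the junctions of an annotated transcript), NIC (annotated splice sites in a new combination), NNC (an unannotated splice site) and genomic (unspliced or without a matching structure). Platform and aligner: not given in the sources used here. Gene levels (CPM) are sums over a gene's models relative to the library totals of 848782 and 545229 reads. Intervals are at 95% and cover counting error only, as does the limit of 3 counts for a count of 0 (3.53 and 5.50 CPM).

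A gene's reads against the remaining reads of each library were compared by Fisher's exact test (two-sided) where the libraries summed to 10 reads or more. Transcript use and incomplete shares were compared likewise, with a minimum of 20 such reads per library. Adjustment was Benjamini-Hochberg over all genes tested, with a threshold of 0.05. TMM (edgeR 4.0.16) and DESeq2 (1.42.0) factors and the removal of the length trend (a running median by length) served as alternatives with an exact binomial test. The code was tested on simulated data. Unannotated models were matched between libraries by all introns, and positions count from 1. Promoters came from the RefSeq table (GRCm38.p6), which matched 6 of the 8 members, and coding sequences from GENCODE M21, aligned globally with Biopython 1.88. Python 3.11.15, numpy 2.4.6, pandas 2.3.3, scipy 1.17.1 and R 4.3.3 were used. The members and gene lists were chosen with earlier results of these data known. Named were all 8 members, list genes with at least 50 reads summed or with 0 reads in both libraries, and the 3 genes nearest to Abcb1b in log2(CPM + 1).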

Additional observations from a re-analysis of the deposited data

Results flagged for a closer look

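Antisense models, which lie on the opposite strand of an annotated gene and enter none of the comparisons, were read inside some member genes above the limit of 3 counts that a count of 0 allows; the series has no control samples to set them against. Inside Abcb1b they had 5 reads in replicate 1 and 12 in replicate 2, all in single-exon models. The most read of these lay at chr5:8799832-8802029 with 3 reads in replicate 1 and at chr5:8799825-8802257 with 4 reads in replicate 2, and in each library its lower end is the position at which the short Abcb1b models stop. Inside Abcg1 they had 19 reads in replicate 1, of which 16 lay at chr17:31114488-31115772, and 1 read in replicate 2. The other 6 members had 3 antisense reads or fewer in either library.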

How the results depend on the processing

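Of all tested genes, 6363 were called by total reads, 3788 with the length trend removed and 3978 with at least 50 reads summed, where fewer genes are tested. Of the members, 5 were called by total reads, 1 with TMM factors, 1 with DESeq2 size factors, 2 with the length trend removed, 2 with at least 50 reads (of 3 tested, against 83.4% of genes) and 3 with known models only (of 4 tested); the cause was not tested. The log2 ratio of Abcb1b changed sign with TMM factors (-0.11), DESeq2 size factors (-0.19), the length trend removed (-0.85) and, in an alternative chosen after seeing the data, without the models ending in intron 2 and with the length trend removed (-0.14), and that of Abcc5 with known models only (0.25). Alternatives also chosen after the data were seen left out unspliced reads (6 of 7 members called, and 6401 genes or 69.7%) and the models ending in intron 2 by total reads or with TMM factors (0.60 for Abcb1b). Counts of genes called for transcript use and for incomplete shares stayed within 1.5 times under both alternatives of each. Leaving out a library gives the other's level: 606 to 776 CPM for Abcb1b and 0 to 2.36 CPM for Abcb4. With known models only, mean levels were 264 CPM for Abcb1b, 36.2 for Abcg2, 11.7 for Abcc5 and 10.1 for Abcg1. They were 3.93 CPM for Abcb1a, 2.42 for Abcc1, 0.917 for Abcc4 and 0 for Abcb4. Abcb1b stayed highest, but Abcg1 then stood above Abcb1a, Abcc1 and Abcc4, so the lower order depends on counting incomplete and other models. Below about 20 reads a gene, depth limits any statement on structure. No paired analysis was possible because the series has 1 group.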
